A study of Mus musculus with 2 samples.

Results

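The retinoblastoma pocket proteins and the E2F transcription factors are described here at the level of their messenger RNA in mouse embryonic stem (ES) cells. The 10 genes were chosen by name, as the rows of the deposited table for Rb1, Rbl1, Rbl2, E2f1, E2f2, E2f3, E2f4, E2f5, E2f7 and E2f8, out of 21937 genes in all. All 10 had reads in both groups and all 10 entered every test. The cells were wild type, of the strain 129Sv-C57Bl/6, and were grown without feeder cells. They received 500 nM ICRF-193 or the solvent DMSO for 16 h, and each group held 3 libraries. ICRF-193 blocks the catalytic cycle of topoisomerase II, which passes 1 DNA duplex through another, and the study asked how the loss of that activity alters transcription. The labels give no line or clone name and do not say whether the replicates were separate cultures. The p-values therefore reflect the spread among these libraries alone, which may be technical.

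The pocket proteins RB1, p107 (encoded by Rbl1) and p130 (encoded by Rbl2) bind E2F factors and hold back the genes that a cell needs to copy its DNA. Kinases made of a cyclin and a CDK phosphorylate the pocket proteins, which then release E2F, and CDK inhibitors such as p21 and p27 restrain those kinases. E2F1, E2F2 and E2F3 are known as activators, E2F4 and E2F5 act mostly as repressors together with p107 or p130, and the atypical E2F7 and E2F8 repress without a DP partner. ES cells are known for a short G1 phase and for pocket proteins that are kept phosphorylated through most of the cycle.

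After ICRF-193 the transcript of Rb1 rose 2.93-fold and that of its relative Rbl1 fell 1.99-fold. The third pocket protein gene, Rbl2, and the activator gene E2f2 were each 1.65-fold higher, and each passed the test only in some of the fits. E2f1, E2f3, E2f4, E2f5, E2f7 and E2f8 stayed between 0.848 and 1.14 of their DMSO means in the authors' deposited table, and none of the 6 passed there. In the authors' deposited table, which tests by DESeq over 18759 genes with reads, 1 of the 10 genes was called higher and 1 lower at an adjusted p under 0.05. The same test called 5.97% of all genes higher and 1.26% lower. Levels are given in normalised reads, a gene's reads over the size factor of the library.

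**Figure D1:**
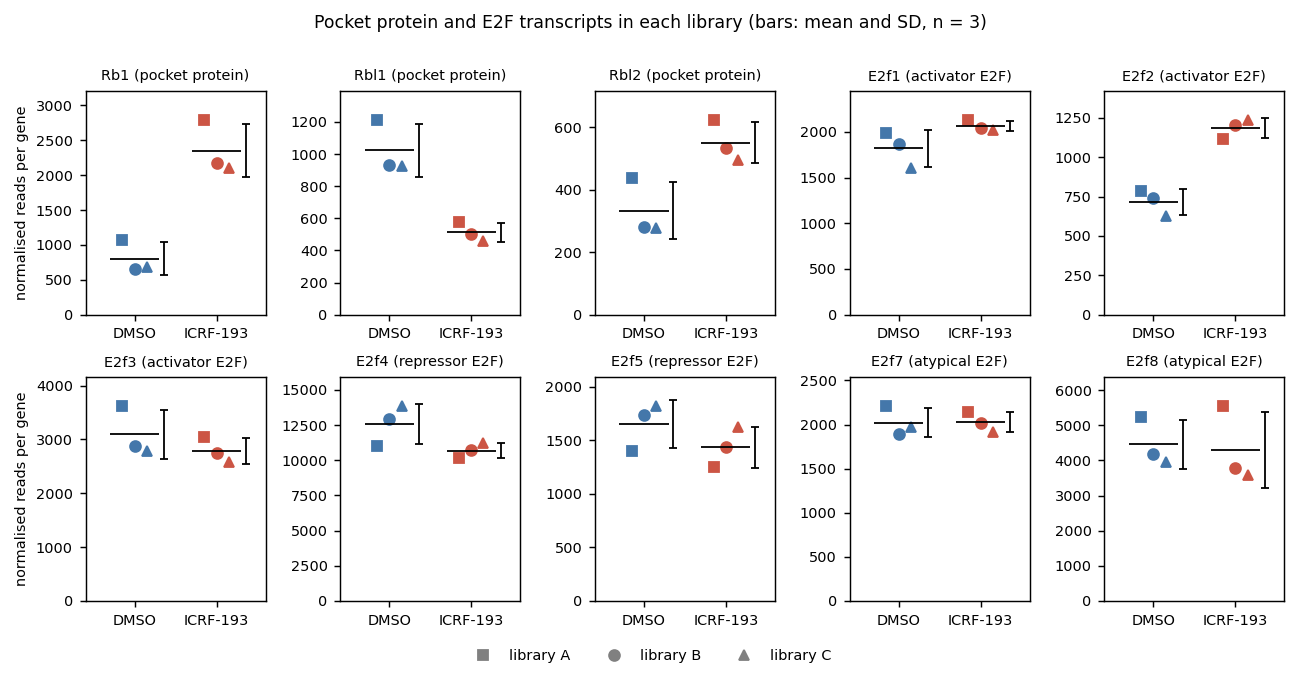
Normalised reads per gene (vertical axes, each from 0) in the 3 DMSO libraries (blue) and the 3 ICRF-193 libraries (red) for each of the 10 genes; squares, circles and triangles are libraries A, B and C, and the bars show the mean and the SD with n = 3. The ICRF-193 points of Rb1, Rbl2, E2f1 and E2f2 lie above all DMSO points, those of Rbl1 lie below them, and the other 5 genes overlap.

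The table holds only group means, and the whole reads of each library were worked back from the digits of those means. The letters A, B and C order the libraries of a group from the largest size factor to the smallest and are not replicate numbers. They held 27370839 to 44015983 reads, without 39 genes of high level whose reads could not be resolved. Library A differed from B and C in each group. Of 10 fibroblast and feeder cell markers 9 were in the table, and their summed level was 17754, 1814 and 1851 normalised reads in DMSO-A, DMSO-B and DMSO-C and 20140.0, 3181 and 2566.5 after ICRF-193. Col1a1, a collagen gene, carried most of this sum in libraries A (12908 and 15180.3), while Thy1 was lower in A than in B and C of its group (185 against 281 and 311 in DMSO) and Lum was at 0 or about 1 read everywhere. The 10 primitive endoderm markers summed to 67098, 22740 and 28104 in DMSO and to 75822, 37978 and 35616 after ICRF-193. Both sums were thus also higher after ICRF-193 than in the DMSO library of the same letter. Most of the endoderm sum came from Sparc (group means 19989 to 29437), Col4a1 (10681 to 12466) and Lama1 (6436 to 5318, lower). The transcription factor genes were far lower: Gata4 (421 to 410), Gata6 (191 to 273), Sox17 (76.4 to 90.9), Sox7 (115 to 125) and Foxa2 (32.1 to 35.9). Of the fibroblast markers the deposited test called 0 (1 with an unadjusted p under 0.05, higher) and limma-voom without libraries A called 5 of 8 higher. Of the endoderm markers the deposited test called 0 (0 also at an unadjusted p under 0.05) and the same limma-voom fit 5 of 10 higher. None of either list was called lower. The fit without libraries A called 25.1% of all 14988 genes higher and 28.8% lower. Whether other cells were present, and what part they had in the results below, was not tested. The ES cell label held in every library, with the 10 ES cell markers at a sum of 154379 to 164596 in DMSO and 103307 to 115187 after ICRF-193. Zfp42, a marker of naive ES cells, was the only marker called in the authors' deposited table (adjusted p = 0.00186 by DESeq). It went from 8155 ± 1734 to 4111 ± 552 (mean ± SD, n = 3). All 10 ES cell markers had a log2 fold change below 0 there, with a median of -0.55. Limma-voom called 2 of the 10 lower, where 5.97% of all genes were called lower. Without libraries A it called 9 of the 10 lower, against 28.8% of all genes. In RNA from a whole culture, fewer cells of a type and less RNA per cell cannot be told apart. Results are therefore also given from limma-voom on the recovered reads, from the same fit with a term that splits libraries A from the rest, and from a fit without both libraries A.

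Promoters of these genes are known sites of control by E2F itself, and those printed here carry 1 of the 8-letter words TTTCCCGC, TTTCGCGC, TTTGCCGC and TTTGGCGC, the core of the site that E2F proteins bind, on either strand. RefSeq promoters (GRCm38.p6, from 250 bases before to 50 bases after the start) were at hand for 7 of the 10 genes: Rbl1, Rbl2, E2f1, E2f2, E2f3, E2f7 and E2f8. A word was found in at least 1 window of 4 of them, Rbl1, E2f2, E2f3 and E2f7, and for 704 of all 27025 genes with a promoter (2.6%). Counted by promoter, it was found in 744 of 32851 (2.26%). E2f2 and E2f3 each also had another window without a word. The window at hand for E2f1 may not lie at its main start, so its lack of a word says nothing about other starts of that gene. The stretches below run 5′ to 3′ on the strand of the gene, and the capitals mark the word or its reverse complement. They come from chr2:157204535-157204592 (minus strand, word 18 bases before the start) for Rbl1, from chr13:29986064-29986114 (minus strand, 11 bases before the start) for E2f3 and from chr10:110745201-110745288 (plus strand, 198 bases before the start) for E2f7.
Rbl1: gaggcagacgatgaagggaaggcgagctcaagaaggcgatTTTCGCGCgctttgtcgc
E2f3: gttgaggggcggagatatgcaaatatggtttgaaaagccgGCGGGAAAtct
E2f7: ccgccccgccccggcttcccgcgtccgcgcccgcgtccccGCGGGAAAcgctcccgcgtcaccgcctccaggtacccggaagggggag
In E2f2 the word TTTGGCGC begins 40 bases after the start. Of the genes with a word Rbl1 was called lower, while E2f2, E2f3 and E2f7 were not called in the authors' deposited table. Of the 3 with no word in the windows searched none was called there. With 1 called gene among 7, nothing can be read from this about the word. A match describes letters in a window and is not a shown binding site.

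Rb1 encodes the founding pocket protein, which binds mainly the activator E2Fs. Its level was 1074, 652 and 679.7 normalised reads in DMSO-A, DMSO-B and DMSO-C and 2789, 2171 and 2095 in the ICRF-193 libraries in the same order. The lowest ICRF-193 library thus held more Rb1 than the highest DMSO library, and library A was the highest of its group on both sides. The mean went from 802 ± 236 to 2352 ± 380.3 (SD, n = 3), and the log2 fold change in the authors' deposited table was 1.55 (adjusted p = 1.39e-07 by DESeq). By letter, the ratio was 2.60 for libraries A, 3.33 for B and 3.08 for C. The letters order size factors, so these are not ratios of paired replicates. Limma-voom gave a log2 fold change of 1.57 ± 0.22 (SE, adjusted p = 0.00838), which became 1.68 ± 0.08 without libraries A (adjusted p = 1.60e-07). Rb1 shares 408 exonic bases with Lpar6 and 488 with Rcbtb2, both on the opposite strand in the GRCm38 annotation, 6.78% and 8.11% of its exonic bases. Whether the kit kept strand is not given in the sources used here, so reads from these stretches cannot be assigned with certainty. Lpar6, a lysophosphatidic acid receptor gene, was at 1946 ± 647 to 2443 ± 853 normalised reads and Rcbtb2 at 2597 ± 425 to 1899 ± 198 (SD, n = 3), and neither passed in the authors' deposited table (adjusted p = 0.798 and 0.377 by DESeq).

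Rbl1 encodes p107, the pocket protein of cycling cells, whose gene is itself a known E2F target; its promoter carries the word TTTCGCGC shown above. The 3 DMSO libraries A, B and C held 1211, 932 and 926 normalised reads and the 3 ICRF-193 libraries 577, 503 and 459. Every ICRF-193 value lay below every DMSO value, with library A again highest on both sides. From 1023 ± 163 the mean fell to 513 ± 59.7 (SD, n = 3), a log2 fold change of -0.996 in the authors' deposited table (adjusted p = 0.00188 by DESeq). The fit with the split term gave -0.99 ± 0.07 (SE, limma-voom, adjusted p = 2.18e-06) and the fit without libraries A -0.95 ± 0.09 (adjusted p = 1.88e-05). Limma-voom with the group alone gave an adjusted p of 0.0121, and its call was lost when ICRF-193-B (0.0657) or ICRF-193-C (0.0606) was left out, with log2 fold changes of -0.98 and -0.92.

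Rbl2 encodes p130, which in resting cells joins E2F4 and the MuvB core in the DREAM repressor complex. Its normalised reads were 439, 282 and 278 in DMSO-A to DMSO-C and 622, 533 and 496 in ICRF-193-A to ICRF-193-C. The groups did not overlap, although DMSO-A came close to ICRF-193-C. The means were 333 ± 91.7 and 550.4 ± 65.0 (SD, n = 3), with a log2 fold change of 0.73 in the authors' deposited table that did not pass (adjusted p = 0.0832 by DESeq). Limma-voom did not call it either (0.74 ± 0.21, SE, adjusted p = 0.0621), but called it higher with the split term (0.72 ± 0.10, adjusted p = 1.37e-04), without libraries A (0.88 ± 0.11, adjusted p = 9.42e-05) and without DMSO-A alone (0.97, adjusted p = 0.0142). Rbl2 shares 693 exonic bases with Aktip and 892 with Gm45464 on the opposite strand. Aktip was at 1891 ± 149 to 1524 ± 149 normalised reads (SD, n = 3) and did not pass in the authors' deposited table (adjusted p = 0.628 by DESeq).

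The 3 pocket protein transcripts can be set side by side per kilobase of exon, using exonic lengths from the GENCODE annotation of GRCm38. In DMSO, Rbl1 was at 171 ± 27.2, Rb1 at 133 ± 39.2 and Rbl2 at 44.0 ± 12.1 normalised reads per kb, and after ICRF-193 Rb1 was at 391 ± 63.2, Rbl1 at 85.6 ± 9.97 and Rbl2 at 72.8 ± 8.59 (SD, n = 3). Rbl1 was the most abundant of the 3 in each DMSO library and Rb1 in each ICRF-193 library, although the group means of Rb1 and Rbl1 in DMSO differed by less than the SD of Rb1. The ratio of Rb1 to Rbl1 in normalised reads was 0.886, 0.700 and 0.734 in the DMSO libraries and 4.83, 4.32 and 4.57 in the ICRF-193 libraries A, B and C. Within a library this ratio does not depend on the scaling, and library A gave the highest value on both sides. Rb1 made up 37.9 ± 2.45% of the summed pocket protein level per kb in DMSO and 71.1 ± 1.07% after ICRF-193 (SD, n = 3). Rbl1 went from 49.5 ± 2.99% to 15.6 ± 0.643%, and Rbl2 from 12.6 ± 0.597% to 13.3 ± 0.437% (SD, n = 3). The shares of Rb1 and Rbl1 did not overlap between the groups, and those of Rbl2 did.

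**Figure D2:**
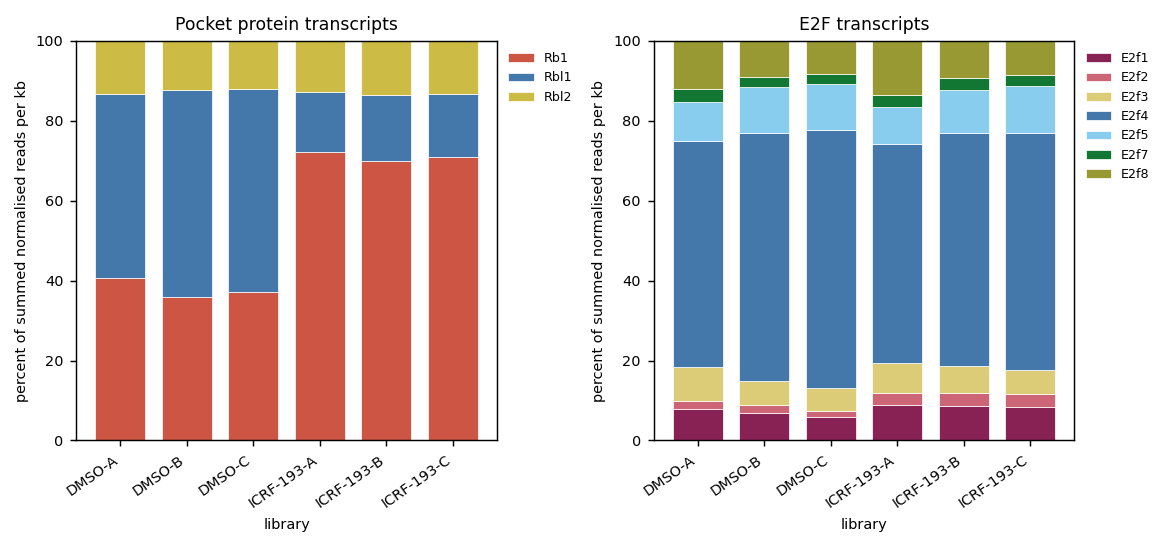
Share of each gene in the summed normalised reads per kb of exon (percent, vertical axes from 0 to 100), for the 3 pocket protein genes (left) and the 7 E2F genes (right) in each of the 6 libraries. Rb1 takes 36.0% to 40.7% of the pocket protein level in DMSO and 70.0% to 72.2% after ICRF-193, whereas E2f4 remains the widest band of the E2F genes in all 6 libraries.

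Among the activator genes, E2f2 showed the widest difference. Its normalised reads were 785, 740.1 and 627 in DMSO-A, DMSO-B and DMSO-C and 1118, 1203 and 1236 in the ICRF-193 libraries. All ICRF-193 values were above all DMSO values, and library A was the highest in DMSO but the lowest after ICRF-193. The mean was 717 ± 81.5 in DMSO and 1186 ± 60.5 after ICRF-193 (SD, n = 3), and the log2 fold change of 0.72 in the authors' deposited table missed the threshold (adjusted p = 0.0588 by DESeq). Limma-voom called it higher (0.72 ± 0.12, SE, adjusted p = 0.0142), as did the fit without libraries A (0.84 ± 0.10, adjusted p = 5.06e-05). The limma-voom call was lost without DMSO-B (adjusted p = 0.0683), DMSO-C (0.0546), ICRF-193-B (0.0734) or ICRF-193-C (0.0698), each time with a log2 fold change between 0.63 and 0.75.

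E2f1, the activator that can also drive cell death, was at 1992, 1865 and 1599 normalised reads in DMSO and at 2128, 2046 and 2023 after ICRF-193 in libraries A, B and C. The groups did not overlap, yet the gap between DMSO-A and ICRF-193-C was small beside the spread within DMSO. Its log2 fold change in the authors' deposited table was 0.18 (adjusted p = 0.874 by DESeq), and limma-voom called it only with the split term (adjusted p = 0.0370) and without libraries A (0.0350). E2f3, the activator that cells in the cycle rely on, was at 3615, 2878 and 2794 in DMSO and at 3055, 2739 and 2583 after ICRF-193. Its groups overlapped, and the log2 fold change in the authors' deposited table was -0.15 (adjusted p = 0.877 by DESeq), with a call only under the split term (-0.15 ± 0.06, SE, limma-voom, adjusted p = 0.0438).

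The repressor genes E2f4 and E2f5 had small log2 fold changes below 0 that passed only when libraries A were modelled or left out. E2f4, which lacks its own nuclear import signal and works with pocket proteins, was at 11018, 12910 and 13828 normalised reads in DMSO and at 10134, 10699 and 11192 after ICRF-193 in libraries A, B and C. DMSO-A lay among the ICRF-193 values, so the groups overlapped. The log2 fold change in the authors' deposited table was -0.24 (adjusted p = 0.775 by DESeq), and limma-voom called it lower only with the split term (-0.23 ± 0.05, SE, adjusted p = 0.00317) and without libraries A (-0.29 ± 0.06, adjusted p = 0.00244). E2f5 went from 1401, 1739 and 1818 to 1248, 1435 and 1629 normalised reads in libraries A, B and C. Its groups overlapped too, with a log2 fold change of -0.20 in the authors' deposited table (adjusted p = 0.844 by DESeq), and the same pair of fits called it lower (limma-voom, adjusted p = 0.0213 with the split term and 0.0424 without libraries A).

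The atypical genes E2f7 and E2f8 passed in none of the 4 fits. E2f7, which p53 is known to induce in other cells, was at 2206, 1888 and 1972 normalised reads in DMSO and at 2142, 2019 and 1918 after ICRF-193. Its values interleaved, and the log2 fold change was 0.00 in the authors' deposited table (adjusted p = 1 by DESeq) and 0.00 ± 0.06 with the split term (SE, limma-voom, adjusted p = 0.957). E2f8 was at 5246, 4172 and 3946 in DMSO and at 5538, 3770.0 and 3596 after ICRF-193, with both libraries A above all others. The log2 fold change of E2f8 was -0.05 in the authors' deposited table (adjusted p = 1 by DESeq) and -0.14 ± 0.06 without libraries A (SE, limma-voom, adjusted p = 0.0900). E2f8 shares 610 exonic bases, 11.2% of its own, with Gm2788 on the opposite strand, E2f7 shares 86 with 1700020G17Rik and E2f5 shares 26 with 1810022K09Rik.

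Per kilobase of exon, E2f4 was the most abundant of the 10 transcripts in both groups, at 5133 ± 584 normalised reads per kb in DMSO and 4354 ± 216 after ICRF-193 (SD, n = 3). In DMSO it was followed by E2f5 (927 ± 124) and E2f8 (818 ± 128), which did not differ beyond their spread, and by E2f1 (577 ± 63.5) and E2f3 (570.1 ± 83.2), which did not either (SD, n = 3). E2f7 came next at 224 ± 18.3, then Rbl1, E2f2 at 147 ± 16.7 and Rb1, each within the spread of its neighbour, and Rbl2 was the lowest. After ICRF-193, E2f5 (807 ± 107) and E2f8 (790.2 ± 197) again lay within their spread, as did E2f8 and E2f1 (655 ± 17.5), and E2f3 followed at 514 ± 44.2 (SD, n = 3). Rb1 at 391 ± 63.2 now stood above E2f2 (243 ± 12.4) and E2f7 (225 ± 12.5), whose values overlapped, while Rbl1 and Rbl2 were the lowest (SD, n = 3).

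Within the summed E2F level per kb, E2f2 took 2.02%, 1.79% and 1.47% in DMSO-A, DMSO-B and DMSO-C and 3.03%, 3.29% and 3.28% in the ICRF-193 libraries. The share of E2f1 was 6.90 ± 1.08% and 8.63 ± 0.313%, also without overlap, and that of E2f4 was 61.0 ± 4.04% and 57.4 ± 2.34%, with overlap (SD, n = 3). The 3 activators together held 13.1% to 18.3% in DMSO and 17.7% to 19.4% after ICRF-193, with DMSO-A inside the ICRF-193 range. The summed E2F level over the summed pocket protein level per kb was 18.1, 28.2 and 28.8 in the DMSO libraries and 11.8, 14.5 and 15.7 in the ICRF-193 libraries. The groups did not overlap in this ratio, and library A was the lowest of its group on both sides. These are ratios of transcripts, and the amounts and phosphorylation of the proteins were not measured.

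How many of the 10 genes passed depended on how libraries A were treated. Limma-voom called 2 higher (Rb1, E2f2) and 1 lower (Rbl1), where 9.75% of 14988 genes were called higher and 5.97% lower. With the split term it called 4 higher (Rb1, Rbl2, E2f1, E2f2) and 4 lower (Rbl1, E2f3, E2f4, E2f5), where the shares of all genes were 27.1% and 32.6%. Without libraries A it called 4 higher and 3 lower, E2f3 being the one no longer called, against 25.1% and 28.8% of all genes. In these last 2 fits the called shares of the 10 genes are near those of all genes and say nothing particular about them. In 4 genes (Rb1, Rbl2, E2f1, E2f2) all ICRF-193 libraries lay above all DMSO libraries, as in 18.6% of the 14988 genes, and in Rbl1 all lay below, as in 18.8%. Library A exceeded the mean of B and C by a log2 of 0.69 in DMSO and 0.39 after ICRF-193 in Rb1, 0.65 and 0.27 in Rbl2, 0.38 and 0.26 in Rbl1 and 0.37 and 0.59 in E2f8. It was below them in E2f4 (-0.28 and -0.11) and E2f5 (-0.34 and -0.30). The part of this split in the results that pass only with the split term or without libraries A was not tested further.

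**Figure D3:**
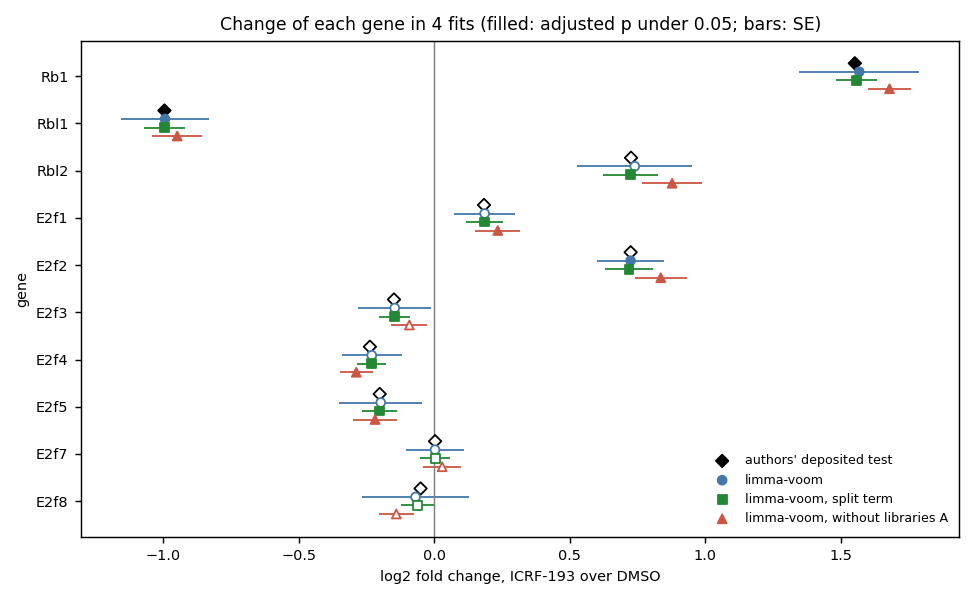
Log2 fold change of ICRF-193 over DMSO (horizontal axis) for each gene in the authors' deposited test and in 3 limma-voom fits on the recovered reads, with filled symbols for an adjusted p under 0.05 and bars for the SE of the limma-voom fits. Rb1 lies between 1.55 and 1.68 and Rbl1 between -0.996 and -0.949 over the fits, and both are filled throughout. Rbl2 and E2f2 lie between 0.72 and 0.88, and the other 6 genes lie within 0.29 of 0.

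The genes whose pattern over the 6 libraries was most like that of the called genes were found by the Euclidean distance of log2(normalised reads + 1), centred for each gene, among 11828 genes with a mean of at least 100 normalised reads. For Rb1 these were Hr, a transcriptional corepressor gene (distance 0.155), the zinc finger gene Zbtb7c (0.192) and Bin1, which encodes a membrane-bending protein (0.246). Hr went from 414 to 1148, Zbtb7c from 101 to 318 and Bin1 from 847 to 2279.6 normalised reads in the authors' deposited table. For Rbl1 they were Iars, an isoleucine tRNA ligase gene (0.137), Mtss1, a regulator of membrane and actin shape (0.152), and Tdrd12, a germline tudor domain gene (0.170). Iars went from 15935 to 8036, Mtss1 from 5310.1 to 2765 and Tdrd12 from 2753 to 1416 normalised reads in the authors' deposited table. These genes were picked for their likeness, and their values support nothing about Rb1 or Rbl1.

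The dimer partners and the regulators of the pocket proteins were followed through lists of genes. Tfdp1 and Tfdp2 encode the DP proteins that most E2Fs need to bind DNA, and E2f6 encodes a repressor without a pocket protein site. Tfdp1 was at 7193 ± 986 to 6264 ± 596, Tfdp2 at 4299 ± 191 to 3588 ± 172 and E2f6 at 1191 ± 154 to 1542 ± 134 normalised reads (SD, n = 3). None of the 3 passed in the authors' deposited table (log2 fold changes -0.20, -0.26 and 0.37, adjusted p = 0.847, 0.697 and 0.470 by DESeq), 0 had an unadjusted p under 0.05, and limma-voom called 0. With the split term limma-voom called E2f6 higher (adjusted p = 4.14e-04) and both DP genes lower (adjusted p = 0.00674 and 0.00109). Of all genes, 27.1% were called higher and 32.6% lower in that fit.

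Of 9 cyclin and CDK genes whose products phosphorylate pocket proteins, 1 was lower and 8 did not pass in the authors' deposited table, with a median log2 fold change of -0.26 against 0.01 for all genes with reads and -0.14 for those with a mean of at least 1000 normalised reads. The lower one was Cdk6, a partner of the D-type cyclins, at 1176, 945 and 916 normalised reads in DMSO and 764, 418 and 413 in ICRF-193. ICRF-193-A was the highest of its group but below every DMSO library, and the log2 fold change in the authors' deposited table was -0.93 (adjusted p = 0.0117 by DESeq). Ccnd1, Ccne1, Ccne2, Cdk2 and Cdk4 had log2 fold changes of 0.27, -0.10, -0.36, -0.19 and -0.26 in the authors' deposited table and did not pass (adjusted p from 0.564 to 0.988 by DESeq). The split term turned all of these but Ccne1 into calls, Ccnd1 higher (limma-voom, adjusted p = 9.75e-04) and the other 3 lower. That fit called 27.1% of all genes higher and 32.6% lower.

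Of 7 CDK inhibitor genes 1 rose and 1 fell in the authors' deposited table. The list median was 0.44, against 0.01 for all genes with reads. That median was the value of Cdkn2c, a gene at only 23.2 to 31.5 normalised reads that did not pass (adjusted p = 0.728 by DESeq). It therefore does not show a rise of the list as a whole. Cdkn1a, which encodes p21 and is induced by p53, was at 3285, 1677 and 1776 normalised reads in DMSO and at 7371, 6281 and 6391 after ICRF-193, a log2 fold change of 1.57 in the authors' deposited table (adjusted p = 8.56e-08 by DESeq). Cdkn1b, which encodes p27, went the other way, from 1427, 2126 and 2229 to 722, 990.2 and 1153, a log2 fold change of -1.01 in the authors' deposited table (adjusted p = 0.0114 by DESeq). Neither gene's groups overlapped, and both calls held without libraries A (limma-voom, adjusted p = 2.93e-08 and 6.61e-06). Of 10 genes for corepressors that pocket proteins recruit, such as histone deacetylases, 0 were called in the authors' DESeq test, 1 had an unadjusted p under 0.05, lower, and limma-voom also called 0. The median was -0.05, and with the split term 4 were lower and 0 higher, where that fit called 32.6% and 27.1% of all genes.

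The MuvB core joins p130 or p107 in the DREAM complex and B-Myb (encoded by Mybl2) in cycling cells. Of 6 genes of this group 1, Mybl2, fell in the authors' deposited table. The median was -0.23, against 0.01 for all genes with reads and -0.14 for those with a mean of at least 1000 normalised reads. Limma-voom called 2 of the 6 lower, 4 with the split term and 3 without libraries A, and 0 higher each time. Those fits called 5.97%, 32.6% and 28.8% of all genes lower. Mybl2, also a known E2F target, was at 18881, 14898 and 13071 normalised reads in DMSO and at 10439, 8188 and 8810.5 in ICRF-193, without overlap (log2 fold change -0.77, adjusted p = 0.0186 by DESeq in the authors' deposited table). Foxm1, which acts after B-Myb in G2, was at 4133 ± 236 to 4141 ± 139 (SD, n = 3), with a log2 fold change of 0.00 in the authors' deposited table.

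Known E2F target genes of the G1/S transition, which encode replication and nucleotide enzymes, had small log2 fold changes that lay mostly below 0. Of 48 genes 2 fell, 0 rose and 46 did not pass in the authors' deposited table by DESeq, where 4 had an unadjusted p under 0.05, all lower. The fallen pair was Mybl2 and Rfc4, a subunit of the clamp loader, which went from 2308, 2578 and 2396 to 1124, 1579 and 1526 normalised reads (log2 fold change -0.78, adjusted p = 0.0232 by DESeq in the authors' deposited table). The list median was -0.18, and the range was -0.78 to 0.30. There were 41 log2 fold changes below 0 and 7 above, where 49.4% of all genes with reads were below 0. Genes of any kind with a mean of at least 1000 normalised reads had a median of -0.14 in the authors' deposited table, close to that of the list. Limma-voom called 5 of the 48 lower and 0 higher, where 5.97% and 9.75% of all genes were called. It called 0 lower without DMSO-B, ICRF-193-B or ICRF-193-C. With the split term 28 were lower and 2 higher, where 32.6% and 27.1% of all genes were, and without libraries A 27 and 3 (28.8% and 25.1% of all genes). In 15 genes all ICRF-193 libraries lay below all DMSO libraries and in 2 above, against 18.8% and 18.6% of all genes. An E2F word was present in the promoters of 16 of the 40 list genes with a RefSeq entry (40%), and the median log2 fold change was -0.22 with a word and -0.17 without.

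The log2 fold changes of DREAM targets in G2 and mitosis also lay mostly below 0. Of 30 genes 1 fell and 29 did not pass in the authors' deposited table. The median was -0.23, against -0.14 for genes of any kind with a mean of at least 1000. Of the 30 values 29 were below 0 and 1 above, where 49.4% of all genes with reads were below 0. At an unadjusted p under 0.05 the deposited test had 6 lower and 0 higher. The called gene was Plk1, a mitotic kinase, at 7906, 9551 and 9483 normalised reads in DMSO and 4629, 5022 and 5258 after ICRF-193, without overlap (log2 fold change -0.85, adjusted p = 0.0106 by DESeq in the authors' deposited table). Limma-voom called 5 lower and 0 higher, where 5.97% and 9.75% of all genes were called. With the split term 23 were lower and 0 higher, where 32.6% and 27.1% of all genes were called. In 15 genes all ICRF-193 libraries lay below all DMSO libraries, as in 18.8% of all genes. An E2F word was present for 1 of the 25 genes of this list with a promoter entry.

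**Figure D4:**
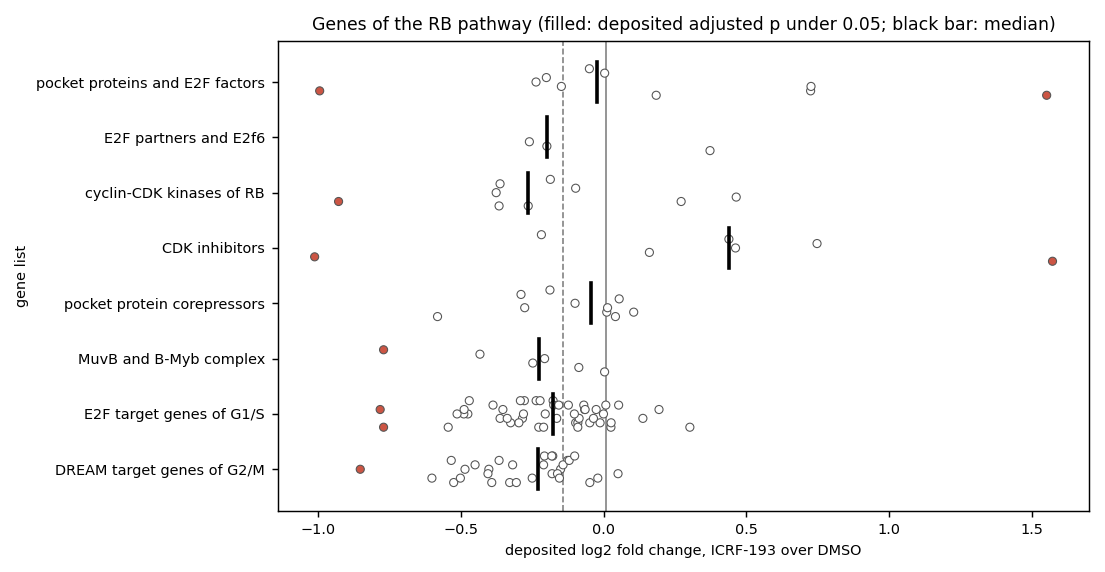
Deposited log2 fold change (horizontal axis) of each gene in the 8 lists (rows), filled where the adjusted p in the authors' deposited table is under 0.05, with the list median as a black bar. The solid grey line is the median of all genes with reads (0.01) and the dashed line that of genes with a mean of at least 1000 normalised reads (-0.14); Rb1 and Cdkn1a lie farthest right, and the G1/S and G2/M targets gather between -0.60 and 0.30 apart from Mybl2, Rfc4 and Plk1.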

How the data were processed

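The deposited file is the authors' comparison table. It was made with TopHat, HTSeq and DESeq on the build mm9, per the submitters' processing notes; versions, annotation and strand are not given in the sources used here. The deposited group columns hold a signal that the authors normalised: the group mean of reads over each library's size factor. The deposited fold column is a ratio of ICRF-193 over DMSO, and the deposited log2 column is its logarithm. The deposited p-values are the authors', before and after Benjamini-Hochberg adjustment. The deposited test at an adjusted p under 0.05 is the main result.

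Printed to 15 significant digits, each mean is a weighted sum of 3 whole read numbers. The reads per library were found by a lattice search, with a single solution for 18207 of 18759 genes (97.1%) and a posterior of at least 0.99 (prior with 3 degrees of freedom) for 513, E2f4 in DMSO among them. Recomputed size factors differed by at most 0.0316%. Recovered reads of the 14988 genes that reached 10 reads in 3 or more libraries were fitted with limma-voom, and p-values were adjusted over these genes (R 4.3.3, limma 3.58.1). The count test planned for deposited counts was not used, since the file holds none. The search and fits were tested on simulated data.

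The genes, lists and tests were chosen with earlier results of these data known. The rule for names took all 10 genes, the called genes of each list (at most 5 in each direction), the DP genes, E2f6, Ccnd1, Ccne1, Ccne2, Cdk2, Cdk4, Cdkn1a, Mybl2 and Foxm1, and for each called gene the 3 nearest genes. Alternatives were other scalings, filters and pseudocounts (1 and 10), the split term, and leaving out libraries. Depth was 27370839 to 44015983 reads per library, and counting error is part of the spread between libraries.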

Additional observations from a re-analysis of the deposited data

How the results depend on the processing

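Rb1 passed in all 15 alternatives (log2 fold change 1.44 to 1.81) and Rbl1 in 13 of 15 (-1.08 to -0.86). The number of the 10 genes called higher, 1 in the deposited test, was 2 in limma-voom, in limma-voom with no filter, in limma-trend with pseudocount 1 or 10, and with the deposited p adjusted over genes with a mean of 10 or more, 3 with total read or upper quartile scaling, and 4 with the split term or without libraries A. Lower calls went from 1 to 4 and 3 in the last pair. Of the 48 G1/S targets, higher calls went from 0 to 2 with the split term, 2 with total reads, 1 with the upper quartile and 3 without libraries A. Lower calls went from 2 to 5 in limma-voom, with the upper quartile, with no filter and with either pseudocount, 4 with total reads, 28 with the split term and 27 without libraries A. Leaving out 1 library at a time gave 1 to 3 of the 10 genes higher and 0 to 1 lower, and 0 to 7 targets lower and 0 higher. E2f7, at 0.0031 in the deposited test, changed sign without DMSO-B, DMSO-C or ICRF-193-A, and the fits that left out 1 library ran from -0.0455 to 0.0702. E2f8, at -0.05, changed sign with total reads (0.0560) and without DMSO-A, ICRF-193-B or ICRF-193-C, over a range from -0.267 to 0.0579. None of these passed in limma-voom. The cause of these changes was not tested. Total read scaling moved the median of all genes in limma-voom from -0.04 to 0.08. No paired analysis was possible because the recovered libraries carry no replicate numbers. The lowest value of the 10 genes in any library was 278 normalised reads, and with 3 libraries per group the calls of E2f2, Rbl1 and Rbl2 changed when single libraries were left out.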

Other observations

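Among the genes around the pocket proteins, some that the rule for names did not take are given here, chosen after their values were seen. The INK4 inhibitors of CDK4 and CDK6 were present at low to moderate levels. Cdkn2c (23.2 to 31.5 normalised reads) and Cdkn2d (19.8 to 17.0, lower) were the low ones, and neither passed in the authors' deposited table (adjusted p = 0.728 and 0.993 by DESeq). Cdkn2b was at 958, 411 and 452 normalised reads in DMSO-A, DMSO-B and DMSO-C and at 1376, 824 and 855 in ICRF-193, and Cdkn2a at 1049.9, 806 and 788 against 1451, 1165 and 1023. DMSO-A lay inside the ICRF-193 range in Cdkn2b and Cdkn2a, and neither of these passed in the authors' deposited table (adjusted p = 0.495 and 0.364 by DESeq). Limma-voom called both higher with the split term (adjusted p = 7.39e-05 and 2.45e-04), where 27.1% of all genes were called higher.

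Of the D-type cyclins, Ccnd2 followed the split of the libraries more than the treatment. It was at 2777, 980.1 and 806 normalised reads in DMSO and 3842.5, 1306 and 1147 after ICRF-193 in libraries A, B and C. By letter it was still higher after ICRF-193, by ratios of 1.38, 1.33 and 1.42. It did not pass in the authors' deposited table (adjusted p = 0.959 by DESeq). Limma-voom called it higher with the split term (adjusted p = 4.35e-04) and without libraries A (0.00437), where 27.1% and 25.1% of all genes were called higher. Among the G1/S targets the split-term fit of limma-voom called Rrm2, a subunit of ribonucleotide reductase, and Uhrf1, which keeps DNA methylation through replication, higher (adjusted p = 1.95e-04 and 0.00376). Rrm2 was at 11549 ± 789 to 14235 ± 609.8 normalised reads, while its partner subunit gene Rrm1 was at 10896 ± 334 to 9333 ± 1013 (SD, n = 3). The 5 targets that limma-voom called lower without the split term were Dbf4, Mcm6, Rfc4, Ezh2 and Mybl2.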
